A study of Homo sapiens with 12 samples.

Results

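Long noncoding RNA genes were followed in HK-2 cells, a human line of proximal tubule origin immortalised with papillomavirus oncogenes, cultured with 2,8-dihydroxyadenine (DHA). DHA is the poorly soluble purine that accumulates in kidneys of people who lack adenine phosphoribosyltransferase. Treatment lasted 72 h in all 4 groups, with 3 libraries each: controls received medium alone, and the others received DHA suspended in medium at 60, 120 or 240 ug/ml. The labels name no carrier control, and they do not say whether libraries of 1 group are separate cultures, so p-values below measure the spread between these libraries. The genes are those typed lincRNA (intergenic) or antisense in GENCODE release 29, without the snoRNA hosts GAS5, ZFAS1, EPB41L4A-AS1 and the SNHG genes, with a deposited value of at least 1 in 3 or more of the 12 libraries. Of 13151 candidate genes, 4759 were listed at 0 in every library, 6497 were above 0 but under that limit, and 1895 passed: 746 lincRNA and 1149 antisense genes. They make up 1895 of the 16789 genes tested, and 1375 of them reached 1 in all 4 groups. Values are the authors' normalized signal per transcript, summed per gene here, with no unit named in the sources used here and no counts behind them, so the depth is unknown.

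A long noncoding RNA (lncRNA) is transcribed and usually spliced and polyadenylated like a messenger RNA but carries no long reading frame. Some act where they are made, on neighbouring genes or chromatin; others build nuclear bodies, bind proteins or carry a microRNA that is cut out of the transcript. Many start beside a protein-coding promoter and run the opposite way (divergent lncRNAs), and many others overlap a coding gene on the other strand (antisense lncRNAs), so the position of the gene is part of its description.

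Sequences of microRNAs inside host lncRNAs that passed the test are shown first, chosen as the best-known microRNA of a host; miR-3142 of MIR3142HG and miR-3677 and miR-940 of MIR3677HG are not shown. Capitals mark the seed, bases 2 to 8, which pairs with target messenger RNAs. The sequences and coordinates are RefSeq's, build GRCh38.p14. Mature microRNAs are too short for these poly(A)-selected libraries, so only the host transcripts were measured. Hosts with higher signal carried these microRNAs:
hsa-miR-146a-5p, chr5:160485372-160485393, plus strand: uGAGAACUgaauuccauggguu
hsa-miR-15a-5p, chr13:50049167-50049188, minus strand: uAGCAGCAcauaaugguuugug
hsa-miR-16-5p, chr13:50049027-50049048, minus strand: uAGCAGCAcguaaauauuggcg
hsa-miR-29a-3p, chr7:130876748-130876769, minus strand: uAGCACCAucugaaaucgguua
hsa-miR-29b-3p, chr7:130877467-130877489, minus strand: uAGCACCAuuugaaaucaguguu
miR-146a lies in MIR3142HG. miR-15a and miR-16 lie together in DLEU2 and share the seed AGCAGCA, and miR-29a and miR-29b share the seed AGCACCA. Hosts with lower signal carried these:
hsa-miR-181a-5p, chr9:124692480-124692502, plus strand: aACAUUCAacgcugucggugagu
hsa-miR-34a-5p, chr1:9151735-9151756, minus strand: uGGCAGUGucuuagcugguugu
hsa-let-7i-5p, chr12:62603691-62603712, plus strand: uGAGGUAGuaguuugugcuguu
hsa-miR-503-5p, chrX:134546371-134546393, minus strand: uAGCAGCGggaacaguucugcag
hsa-miR-4435, chr2:87629764-87629785, plus strand: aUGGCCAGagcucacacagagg
miR-4435 is encoded at 2 places, in CYTOR (chr2:87629764-87629785, plus strand) and in MIR4435-2HG (chr2:111321061-111321082, minus strand), with the same letters in both.

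Promoter windows of 4 lncRNAs that recur below are shown for comparison, each with 250 bases before and 50 after the RefSeq start, which can differ from the GENCODE start. LUCAT1 and HMGA2-AS1 rose, and CYTOR and MIR4435-2HG fell. Capitals mark matches to the AP-1 letters TGANTCA or the cAMP response element TGACGTCA on either strand:
LUCAT1 promoter, chr5:91314353-91314652, minus strand: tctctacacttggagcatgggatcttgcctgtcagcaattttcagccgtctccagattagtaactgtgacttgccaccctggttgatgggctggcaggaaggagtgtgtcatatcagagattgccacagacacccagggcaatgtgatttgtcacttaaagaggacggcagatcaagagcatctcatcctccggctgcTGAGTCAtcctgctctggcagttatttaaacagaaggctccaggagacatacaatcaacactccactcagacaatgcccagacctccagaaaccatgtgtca
HMGA2-AS1 promoter, chr12:65882276-65882575, minus strand: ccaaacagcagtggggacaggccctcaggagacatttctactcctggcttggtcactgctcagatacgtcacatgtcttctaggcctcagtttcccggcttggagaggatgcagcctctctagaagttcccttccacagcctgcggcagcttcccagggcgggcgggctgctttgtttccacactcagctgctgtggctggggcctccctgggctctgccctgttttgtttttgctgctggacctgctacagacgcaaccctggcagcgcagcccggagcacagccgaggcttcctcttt
CYTOR promoter, chr2:87455177-87455476, plus strand: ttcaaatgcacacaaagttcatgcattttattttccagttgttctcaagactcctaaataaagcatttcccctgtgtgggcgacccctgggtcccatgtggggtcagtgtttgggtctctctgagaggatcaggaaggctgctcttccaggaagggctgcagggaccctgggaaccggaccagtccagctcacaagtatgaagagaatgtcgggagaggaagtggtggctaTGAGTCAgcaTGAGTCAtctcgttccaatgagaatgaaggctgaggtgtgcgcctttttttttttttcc
MIR4435-2HG promoter, chr2:111495112-111495411, minus strand: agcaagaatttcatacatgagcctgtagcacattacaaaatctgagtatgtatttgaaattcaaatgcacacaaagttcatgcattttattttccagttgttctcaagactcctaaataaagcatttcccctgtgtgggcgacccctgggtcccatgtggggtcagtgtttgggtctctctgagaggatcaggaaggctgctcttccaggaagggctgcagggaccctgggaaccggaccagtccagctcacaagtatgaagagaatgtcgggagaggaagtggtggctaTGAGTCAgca
CYTOR and MIR4435-2HG are copies of one another, and the longest identical run of their windows was 241 bases, from base 1 of the CYTOR window and base 60 of the MIR4435-2HG window. Starting at the gene's first base, counted as 0, the AP-1 letters stood at -52 in LUCAT1, at -19 and -9 in CYTOR and at 40 in MIR4435-2HG, and HMGA2-AS1 had none.

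The lncRNAs were low and short. Their median level over the 12 libraries was 1.6 (quartiles 0.967 and 3.17), against 18.1 for the protein-coding genes tested. Their main transcripts had a median length of 639 bases, against 2290 for coding genes, and 504 of them (26.6%) had a single exon, against 2.18% of coding genes. Of the 1895, 1129 had a mean under 2 and 272 a mean of 5 or more. In 858 an exon overlapped an exon of a coding gene, and 70 had a near-identical copy elsewhere. The libraries were made with dUTP in the second strand, but the sources used here give no strand setting for the counting. Reads of such a lncRNA and of the coding exon it overlaps therefore cannot be told apart.

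Library facts that touch these values are few. The summed signal of a library was highest in a control (1228979) and lowest in replicate 2 at 240 ug/ml (791808), and all treated totals, up to 1060084, were under all control totals. Cytosolic ribosomal protein genes held 14.4 to 17.3% of the signal in control and 7.63 to 11% at 240 ug/ml. Of the proximal tubule markers checked, 5 of 12 reached a group mean of 1, with LRP2 and SLC22A6 at 0 throughout. All 7 epithelial markers were present, with a summed level of 1136 to 1208 in control and 1022 to 1136 at 240 ug/ml. The 6 fibroblast markers, 4 of which reached a group mean of 1, summed to 246.9 to 342.3 in control and 38.8 to 65.9 at 240 ug/ml, and the part of such changes in the lncRNA results was not tested. In bulk RNA, fewer cells that express a gene and less RNA of it per cell cannot be told apart.

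The lncRNA signal as a whole was lower at 240 ug/ml than in control, while its share of the library was higher at every dose. Summed over the 1895 genes it was 8293 ± 300 (SD, n = 3) in control, 7842 ± 399 at 60, 7846 ± 423 at 120 and 7586 ± 302 at 240 ug/ml. Only the 240 ug/ml libraries lay wholly under the controls (exact permutation test, two-sided p = 0.1, the smallest that 3 against 3 allow; p = 0.3 at 60 and 0.2 at 120 ug/ml). Without AD000090.1, the most abundant lncRNA, and the lncRNAs of clones FP236383 and FP671120, which hold ribosomal RNA repeats, the libraries of all 3 doses lay under the controls (6523 ± 324, 6451 ± 290 and 6309 ± 237 against 7098 ± 192; exact permutation p = 0.1 each). As a share of all signal, the lncRNAs held 0.695 to 0.698% in control, 0.75 to 0.768% at 60, 0.769 to 0.941% at 120 and 0.775 to 1.0% at 240 ug/ml. At each dose every library was above every control (exact permutation p = 0.1 each). The highest share, 1.0%, belonged to the library with the lowest total, replicate 2 at 240 ug/ml. Per library, 1461 ± 15.2 lncRNAs reached a value of 1 in control and 1334 ± 37.6 at 240 ug/ml (exact permutation p = 0.1). With every library scaled to an equal total, those numbers became 1274 ± 48.9 and 1412 ± 102 (exact permutation p = 0.1), so the direction depended on the scaling.

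**Figure D1:**
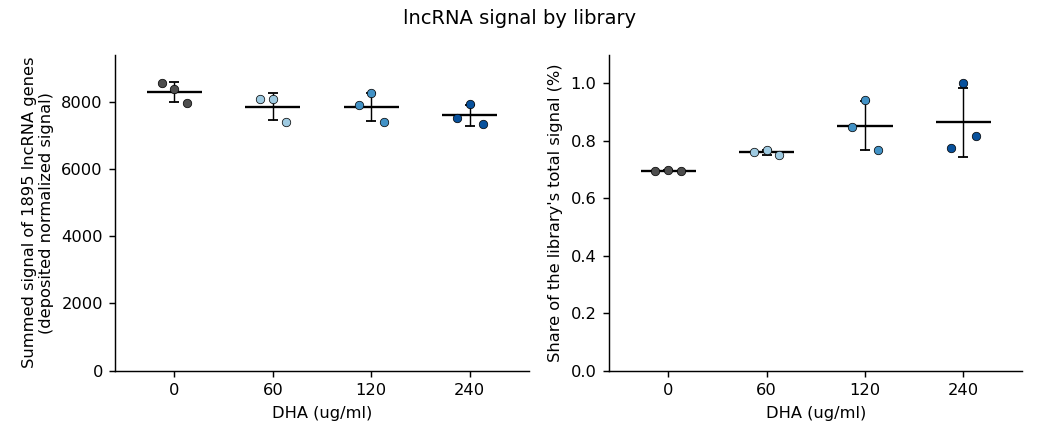
Summed deposited signal of the 1895 lncRNA genes (left) and their share of each library's total signal in percent (right) against the DHA dose in ug/ml; points are libraries, lines the means and bars the SD, n = 3. The summed signal at 240 ug/ml (7586 ± 302) lay under control (8293 ± 300), while the share was 0.695 to 0.698% in control and 0.775 to 1.0% at 240 ug/ml.

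Single genes were tested with limma on log2(signal + 1), fitted across all 16789 genes and 12 libraries and adjusted by Benjamini-Hochberg over all genes; a gene is said to have risen or fallen where its adjusted p was under 0.05. All fold changes are on that scale, which understates the change of low genes. At 60 ug/ml 33 lncRNAs rose and 86 fell (1.74 and 4.54% of them), where 8.89% of all genes rose and 10.0% fell. At 120 ug/ml 108 rose and 251 fell (5.7 and 13.2%), against 15.9 and 20.8% of all genes. At 240 ug/ml 140 rose and 344 fell (7.39 and 18.2%), against 19.7 and 23.5%. At each dose the shares were below those of all genes, and the lncRNAs that fell outnumbered those that rose. Across the 4 groups 388 lncRNAs differed by the F statistic (20.5%), where 42.7% of all genes did. Calls with a change of 1 or more on the log2 scale at 240 ug/ml numbered 36 rises and 104 falls among the 1895 lncRNAs. Among all 16789 genes they numbered 352 and 871, so for changes of that size the lncRNA shares lay near those of all genes.

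Low level went with fewer calls. Among the 1129 lncRNAs with a mean under 2, 46 rose and 159 fell at 240 ug/ml, and coding genes of that level (1124) gave 82 and 228 (7.3 and 20.3%). Among the 272 with a mean of 5 or more, 48 rose and 73 fell (17.6 and 26.8%), where coding genes of that level gave 25.8 and 28.2%. The excess of falling lncRNAs depended on the scaling and on a correction for GC content and length. With equal totals 337 rose and 145 fell at 240 ug/ml (69.9% of the calls higher, against 28.9% as deposited), 252 and 113 at 120, and 61 and 43 at 60 ug/ml. In the deposited scaling with GC content and length subtracted, 60 rose and 53 fell at 60, 193 and 167 at 120, and 235 and 230 at 240 ug/ml. The shares of all genes called under these settings are not given here, so these counts cannot be set against genes at large. Scaling to equal totals moved the median of all genes at 240 ug/ml from -0.03 to 0.33. In either scaling the median lncRNA lay under the median gene: -0.13 against -0.03 as deposited, and 0.14 against 0.33 with equal totals. Against coding genes of like level, the deposited medians at 240 ug/ml were -0.13 against -0.14 for means under 2. They were -0.14 against -0.06 for means of 2 to 5, and -0.08 against -0.02 for means of 5 or more. After subtraction of GC content and length the lncRNA median was 0.03. Replicates mattered at 60 ug/ml, where 52 lncRNAs fell without control replicate 1. Without the 21 lncRNAs that reached 1 in a single group, 20 of them in control, 33 rose and 74 fell at 60, 108 and 236 at 120, and 139 and 327 at 240 ug/ml.

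**Figure D2:**
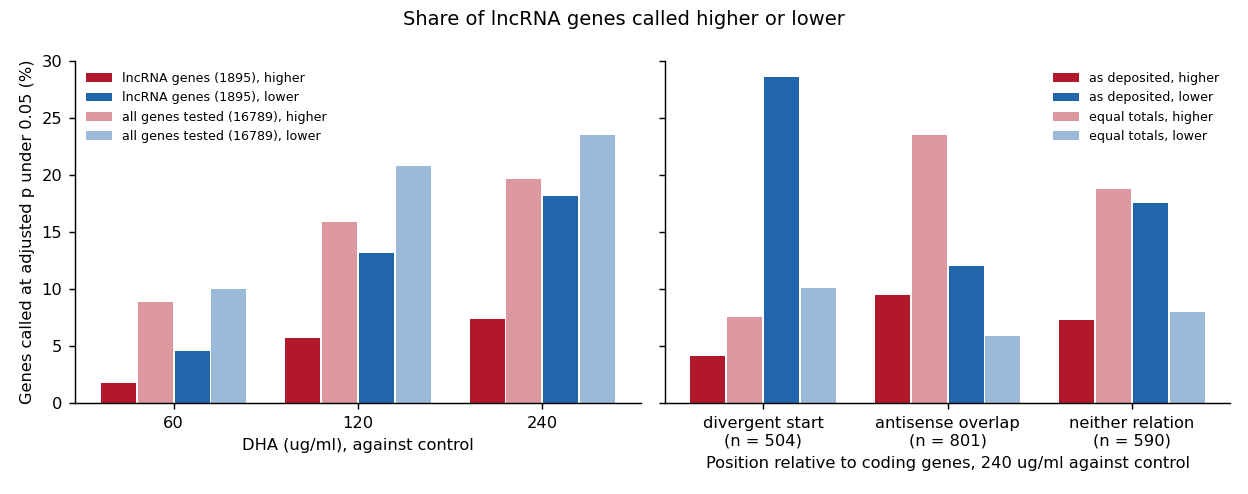
Left, percent of the 1895 lncRNA genes and of all 16789 genes tested that were called higher or lower than control (limma, adjusted p under 0.05) at each dose. Right, the percent called at 240 ug/ml by position relative to coding genes, with the deposited scaling and with equal totals; divergent lncRNAs fell most often as deposited (28.6%) and with equal totals (10.1%).

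The lncRNAs were also grouped by position relative to coding genes. Of the 1895, 504 started within 1 kb of a coding start on the opposite strand, 801 others overlapped a coding gene on the opposite strand, and 590 did neither. At 240 ug/ml 21 divergent lncRNAs rose and 144 fell (4.17 and 28.6%), with a median log2 fold change of -0.30. Of all genes 19.7% rose and 23.5% fell at that dose, and of coding genes with a mean under 2, 7.3 and 20.3%. The antisense-overlapping lncRNAs gave 76 that rose and 96 that fell (9.49 and 12%; median 0.00), and the others 43 and 104 (7.29 and 17.6%; median -0.11). The same order of falls was present at the lower doses. At 120 ug/ml 14 divergent lncRNAs rose and 97 fell (2.78 and 19.2%), against 58 and 72 overlapping ones and 15.9 and 20.8% of all genes. At 60 ug/ml 3 rose and 31 fell (0.595 and 6.15%), against 13 and 22 overlapping ones and 8.89 and 10.0% of all genes. No test of the difference between the classes was made.

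The order of the classes by their share of falls held in the subsets examined, but not always that by rises. Without exon overlap or a copy, lncRNAs with neither relation rose more often (7.59%) than overlapping ones (6.52%) at 240 ug/ml. Without exon overlap or a near-identical copy, 5 of 192 divergent lncRNAs rose and 48 fell at 240 ug/ml, and 18 and 25 of 276 overlapping ones. With a mean of 5 or more, 9 of 75 divergent lncRNAs rose and 35 fell (12 and 46.7%), and 28 and 21 of 119 overlapping ones. With equal totals 38 divergent lncRNAs rose and 51 fell at 240 ug/ml (7.54 and 10.1%; median -0.04), while 188 overlapping ones rose and 47 fell (23.5 and 5.87%; median 0.28). Subtracting GC content and length in the deposited scaling brought the shares of falls closer together. Then 16.1% of divergent, 8.74% of overlapping and 13.4% of the other lncRNAs fell at 240 ug/ml, and 6.55, 17.0 and 11.2% rose. The coding genes on the other side of the divergent starts did not share the excess of falls: of 491, 129 rose and 103 fell (26.3 and 21.0%), with a median of 0.06. Of the 870 coding genes overlapped by antisense lncRNAs, 221 rose and 235 fell.

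**Figure D3:**
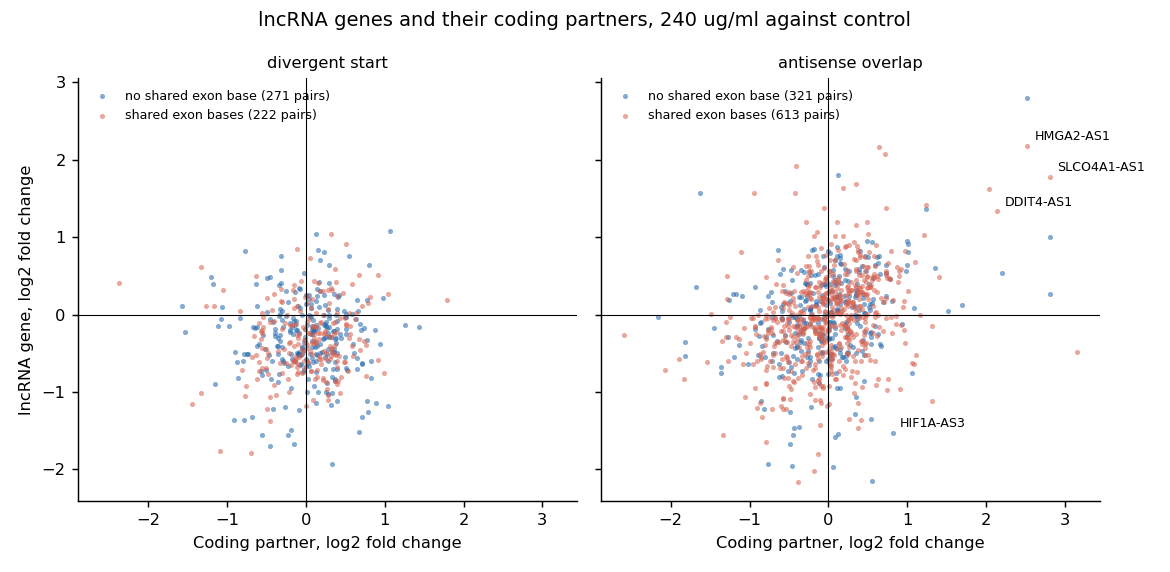
Log2 fold change at 240 ug/ml of each lncRNA against that of its coding partner, for divergent starts (271 pairs without and 222 with a shared exon) and antisense overlaps (321 without and 613 with one). Each point is a pair; the divergent pairs without a shared exon show no slope (r = -0.0013), and the antisense pairs a weak one (r = 0.28 without and 0.33 with a shared exon).

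The fold changes of lncRNAs were set against those of their coding partners. The pairs numbered 1427 over 1215 lncRNAs, all from the same libraries and partly from the same reads. Pearson's r between the fold changes at 240 ug/ml, given as a description across pairs, was 0.33 for antisense pairs with a shared exon, 0.28 for those without, 0.14 for divergent pairs with one and -0.0013 for divergent pairs without. Among the antisense pairs without a shared exon both genes were called in 35, and in 29 the direction was the same. Among the divergent pairs without one both were called in 46; 4 pairs rose together, 18 fell together and the rest went opposite ways. The 360 lncRNAs with neither relation but a coding gene within 50 kb gave r = 0.25, with 53 pairs both called and 29 in the same direction.

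Among the lncRNAs that rose most, several lay in or beside coding genes that rose as well. AC090673.2 (ENSG00000256083, chr12:65934777-65948479, minus strand) lies antisense within HMGA2, the gene of a chromatin architectural protein, without a shared exon. Its signal was 0.2, 0.5 and 0.4 in the 3 control libraries, 2.6, 0.2 and 2.8 at 60, 9.4, 5.8 and 7.0 at 120 and 8.7, 8.3 and 8.5 at 240 ug/ml. All libraries at the upper doses were above all controls, and 1 library at 60 ug/ml was not. The log2 fold change was 0.90 (SE 0.35, limma adjusted p = 0.0996) at 60, 2.60 (adjusted p = 0.000261) at 120 and 2.80 (adjusted p = 0.000116) at 240 ug/ml. HMGA2-AS1 (chr12:65851340-65882167, minus strand), whose promoter is printed above and which shares 384 bases with HMGA2 exons, read 0.6, 0.2 and 0.3 in control, 1.3, 0.9 and 1.9 at 60, 5.3, 3.8 and 4.2 at 120 and 5.3, 6.1 and 4.2 at 240 ug/ml. Every treated library was above every control, and the log2 fold changes were 0.78 (SE 0.19, adjusted p = 0.0167; lost without control replicate 2, adjusted p = 0.0598), 1.99 (adjusted p = 4.05e-05) and 2.18 (adjusted p = 1.68e-05). HMGA2 itself went from 64.1, 54.7 and 50.6 in control to 337.9, 335.6 and 307.2 at 240 ug/ml, a log2 fold change of 2.52.

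2 intergenic genes rose from near 0. AC078820.1 (ENSG00000258088, chr12:75694010-75698816, minus strand), 182374 bases from the nearest coding gene, KRR1, read 0.5, 0.3 and 0.4 in control, 1.7, 2.0 and 3.1 at 60, 5.1, 5.9 and 5.6 at 120 and 7.7, 9.8 and 7.7 at 240 ug/ml. Its 4 groups did not overlap, and its log2 fold changes were 1.2, 2.22 and 2.74 (SE 0.16; limma adjusted p = 0.000941, 1.35e-05 and 3.42e-06). AP005233.2 (ENSG00000260877, chr11:69371463-69372512, plus strand) lies 3737 bases from MYEOV. It read 0.3, 0.1 and 0.3 in control, 3.0, 4.7 and 4.2 at 60, 7.3, 6.3 and 5.0 at 120 and 5.2, 5.6 and 5.8 at 240 ug/ml, with log2 fold changes of 2.00, 2.54 and 2.41 (SE 0.16; adjusted p = 0.000124, 8.05e-06 and 4.75e-06). Most of its rise was present at 60 ug/ml, and the 2 upper doses overlapped. MYEOV rose by 2.34 at 240 ug/ml.

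Other antisense genes rose beside their coding partners. SLCO4A1-AS1 (chr20:62663019-62666724, minus strand) shares 346 bases with exons of SLCO4A1, an organic anion transporter gene. It read 0.7, 0.4 and 0.2 in control, 2.3, 1.6 and 2.5 at 60, 3.8, 3.1 and 3.5 at 120 and 4.3, 4.2 and 3.2 at 240 ug/ml, all treated libraries above all controls, and rose by 1.13, 1.65 and 1.78 (SE 0.17; limma adjusted p = 0.00172, 6.2e-05 and 2.68e-05). SLCO4A1 went from 48.7, 41.1 and 35.9 in control to 297.5, 333.2 and 263.3 at 240 ug/ml. DDIT4-AS1 (chr10:72274915-72275980, minus strand) lies with all 847 bases of its transcript in exons of DDIT4, a stress-induced inhibitor of mTOR signalling. It read 14.3, 19.1 and 10.8 in control, 34.5, 26.8 and 33.8 at 60, 58.2, 41.8 and 74.7 at 120 and 43.6, 44.6 and 27.8 at 240 ug/ml, and rose by 1.08, 1.91 and 1.34 (SE 0.25; adjusted p = 0.0115, 0.000189 and 0.0012). Its mean was highest at 120 ug/ml, with overlap between the upper doses, and every treated library was above every control. Because the antisense transcript lies inside the coding exons, its values and those of DDIT4 (a rise of 2.14 at 240 ug/ml) cannot be told apart.

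Further risers were less even. AC114803.1 (ENSG00000230432, chr2:219299002-219304130, plus strand), which shares 216 bases with PTPRN, read 1.0, 0.5 and 0.5 in control against 6.5, 5.3 and 6.2 at 240 ug/ml, without overlap, a rise of 2.08 (SE 0.26, limma adjusted p = 0.000116). AP001029.1 (ENSG00000267108, chr18:12432897-12437635, plus strand) had the largest estimate at 240 ug/ml, 3.21 (SE 0.83, adjusted p = 0.00883), but its libraries overlapped: 6.9, 0 and 0 in control, 3.4, 10.2 and 3.8 at 60, 3.5, 13.5 and 16.7 at 120 and 6.5, 29.6 and 26.5 at 240 ug/ml. FOXD1-AS1 (chr5:73446357-73446984, plus strand) read 0.8, 0 and 2.4 in control against 3.7, 11.6 and 8.4 at 240 ug/ml, a rise of 2.17 (SE 0.49, adjusted p = 0.00422), without overlap between these libraries. It shares 424 bases with exons of FOXD1, which rose by 0.64 at 240 ug/ml, so reads of the 2 genes cannot be told apart there. PHLDA1-AS1 (chr12:76030494-76031378, plus strand), with 553 of its 569 transcript bases in PHLDA1 exons, read 1.2, 3.8 and 6.4 in control, 9.3, 15.7 and 29.8 at 120 and 12.7, 10.3 and 13.7 at 240 ug/ml. It rose by 2.03 at 120 and by 1.62 at 240 ug/ml (SE 0.52, adjusted p = 0.00988 and 0.0249), and without control replicate 1 the second call was lost (adjusted p = 0.104). With equal totals the lncRNA rises named above at 240 ug/ml remained calls. U91328.2 (ENSG00000272558), which shares 273 bases with TRIM38 exons, rose by 1.93 at 240 ug/ml (adjusted p = 0.0479), where TRIM38 fell by 0.42. Its call was lost when any of 8 libraries was left out.

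**Figure D4:**
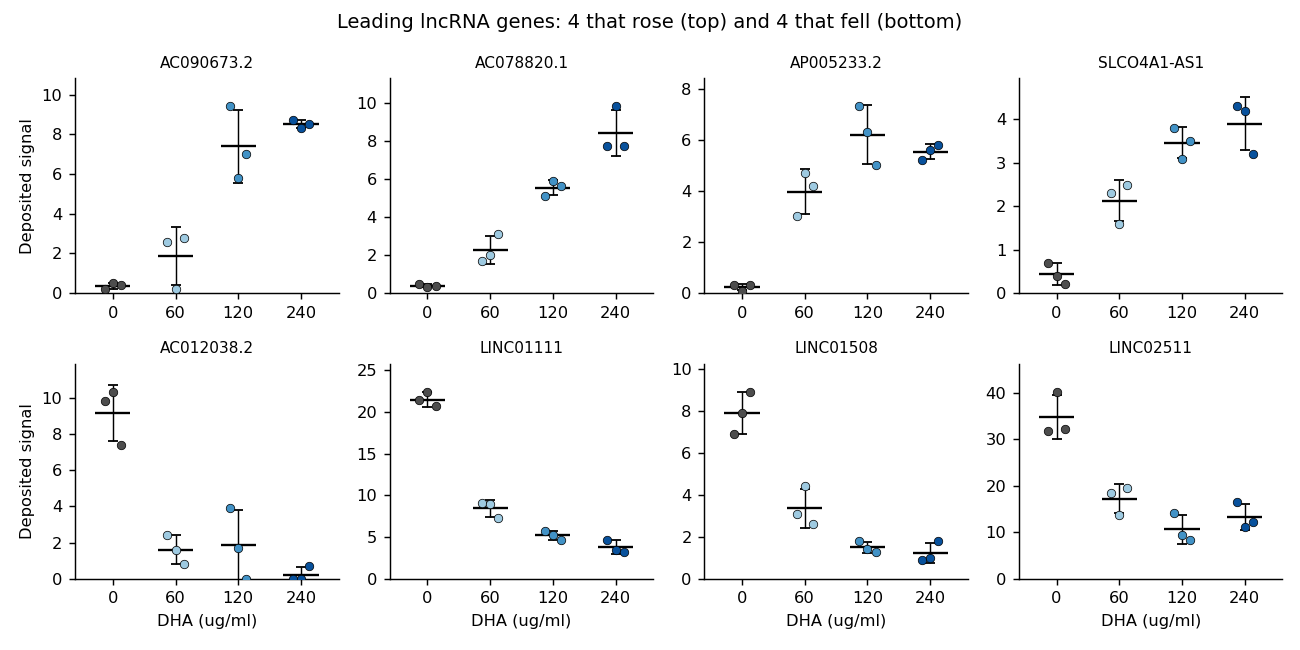
Deposited signal of 4 lncRNAs that rose (top) and 4 that fell (bottom) against the DHA dose in ug/ml; points are libraries, lines the means and bars the SD, n = 3. AC078820.1 reached 7.7 to 9.8 at 240 ug/ml from 0.3 to 0.5 in control, and LINC01111 went from 20.7 to 22.4 in control to 3.2 to 4.7.

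Among the lncRNAs that fell most were intergenic genes with clear signal in control. LINC01111 read 21.4, 22.4 and 20.7 in control, 9.1, 9.0 and 7.3 at 60, 5.7, 5.2 and 4.7 at 120 and 4.7, 3.5 and 3.2 at 240 ug/ml. All treated libraries were under all controls, and the log2 fold changes were -1.25, -1.86 and -2.24 (SE 0.12; limma adjusted p = 0.000324, 1.06e-05 and 3.29e-06). LINC01508 (chr9:90300902-90433505, minus strand) read 6.9, 7.9 and 8.9 in control, 3.1, 4.4 and 2.6 at 60, 1.8, 1.4 and 1.3 at 120 and 0.9, 1.0 and 1.8 at 240 ug/ml, a fall that was -2.01 at the top dose (SE 0.19, adjusted p = 2.29e-05). LINC02511 (chr4:136796722-137212799, minus strand) read 31.8, 40.1 and 32.2 in control, 18.4, 13.7 and 19.5 at 60, 14.1, 9.5 and 8.3 at 120 and 16.4, 11.2 and 12.2 at 240 ug/ml. Its treated libraries were all under the controls, with changes of -0.98, -1.64 and -1.33 (SE 0.20; adjusted p = 0.00639, 0.000124 and 0.000301). LINC01638 (chr22:27221349-27224727, minus strand) read 3.3, 3.5 and 3.8 in control against 0.4, 0.2 and 0 at 240 ug/ml, a change of -1.93 (SE 0.17, adjusted p = 1.42e-05).

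Genes known by clone names fell as far. AC012038.2 (ENSG00000257849, chr12:42966122-42967353, plus strand) read 9.8, 10.3 and 7.4 in control, 2.4, 1.6 and 0.8 at 60, 3.9, 1.7 and 0 at 120 and 0, 0 and 0.7 at 240 ug/ml, the largest fall at that dose (-3.08, SE 0.47, limma adjusted p = 0.000375). AC092807.1 (ENSG00000230285, chr1:85599131-85600734, plus strand), 15169 bases from CCN1, a YAP target gene that fell by 0.77, read 6.6, 6.0 and 7.5 in control against 1.5, 0 and 0 at 240 ug/ml (-2.50, SE 0.37, adjusted p = 0.000288). AC025580.1 (ENSG00000259342, chr15:45430652-45441808, minus strand), antisense to C15orf48, read 21.1, 16.2 and 22 in control, 8.9, 11.4 and 7.7 at 60, 3.4, 3.4 and 5.6 at 120 and 3.7, 1.8 and 3.3 at 240 ug/ml. Its groups did not overlap with control, and its changes were -1.01, -2.03 and -2.42 (SE 0.22; adjusted p = 0.0102, 8.22e-05 and 2.1e-05). AC092118.1 (ENSG00000187185, chr16:57798186-57816946, plus strand) shares 97 bases with KIFC3, a kinesin gene, and read 9.8, 9.8 and 9.5 in control, 4.4, 2.4 and 3.0 at 60, 1.5, 1.9 and 1.3 at 120 and 1.5, 1.4 and 1.3 at 240 ug/ml. Its changes were -1.35, -2.07 and -2.16 (SE 0.16; adjusted p = 0.000641, 1.6e-05 and 8.16e-06), where KIFC3 fell by 0.39 at the top dose. With equal totals all lncRNA falls named so far in this and the preceding account remained calls at 240 ug/ml. AC069234.3 (ENSG00000256569) shares 569 bases with UNC119B exons and fell by 2.02 (adjusted p = 0.00985). CLN8-AS1, antisense to CLN8 without a shared exon, fell by 1.97 (adjusted p = 0.000145). Their partners UNC119B (-0.18, adjusted p = 0.0749) and CLN8 (0.05, adjusted p = 0.864) were not called.

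A few more genes were at the extremes of a single dose. AC078850.1 (ENSG00000248187) read 5.7, 6.0 and 5.8 in control, 2.4, 2.2 and 1.2 at 60, 2.6, 1.5 and 1.2 at 120 and 2.8, 1.4 and 1.4 at 240 ug/ml, so its fall at 60 ug/ml (-1.25, SE 0.24, limma adjusted p = 0.00491) was about as large as at the top dose (-1.29, adjusted p = 0.00119). STIM2-AS1, antisense to the calcium sensor gene STIM2, read 0.6, 2.2 and 2.1 in control and was listed at 0 in all libraries at 60 and 120 ug/ml and in 2 of 3 at 240 ug/ml, where the third read 1.2. Its call at 240 ug/ml (-0.95, adjusted p = 0.0402) was lost with equal totals (adjusted p = 0.073) and without control replicate 2 (adjusted p = 0.141). CHMP1B-AS1 read 15.4, 12 and 14.6 in control, 9.1, 9.2 and 6.9 at 60, 7.5, 0 and 4.2 at 120 and 5.6, 10.3 and 10.1 at 240 ug/ml, and was called at 120 ug/ml (-2.08, adjusted p = 0.016), the group with the library at 0. With only control and 120 ug/ml fitted its adjusted p was 0.0578. AC011465.1 (ENSG00000268764), within SIPA1L3 and without a shared exon, read 0.4, 0 and 0.4 in control, 1.7, 0.9 and 2.5 at 60, 2.6, 3.1 and 2.0 at 120 and 1.2, 1.5 and 1.6 at 240 ug/ml. It rose by 1.06, 1.5 and 0.96 (SE 0.23; adjusted p = 0.00955, 0.000578 and 0.0064), with every treated library above control and the highest level at 120 ug/ml.

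Between adjacent doses few lncRNAs differed. From 60 to 120 ug/ml 6 rose and 8 fell, where 0.536 and 1.61% of all genes did. The risers included AC090673.2 (1.70, limma adjusted p = 0.0388), HMGA2-AS1 (1.21, adjusted p = 0.0298) and AC078820.1 (1.02, adjusted p = 0.0298). The fallers included AC025580.1 (-1.02, adjusted p = 0.0442), PRKAR1B-AS2 (-0.95, adjusted p = 0.0420) and AL391422.4 (ENSG00000270504), which starts 915 bases from PXDC1, shares 751 exon bases with it and fell by 0.77 (adjusted p = 0.0384). AL391422.4 read 20.8, 21.7 and 20.1 in control, 13.5, 15.5 and 8.7 at 60, 6.9, 7.4 and 6.0 at 120 and 5.2, 5.2 and 5.6 at 240 ug/ml, with each group wholly under the lower dose. These step counts rested on single libraries: without DHA60 replicate 3 they became 32 and 52, and without control replicate 1 they became 0 and 0. From 120 to 240 ug/ml limma called no lncRNA, and 0.00% of all genes. An unadjusted p under 0.05, which some genes reach without any difference, was found for 126 of 1895 lncRNAs and 1331 of all 16789 genes. Quantile normalization and limma without a trend each called 1 lncRNA that fell.

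Most of the 10 most abundant lncRNAs gave no call as deposited, where 3 identical copies with the same values are counted one by one. AD000090.1 (ENSG00000283907, chr19:35557956-35581954, plus strand) led with 958.4, 883.8 and 794.0 in control against 916.6, 1025.6 and 930.8 at 240 ug/ml (0.13, limma adjusted p = 0.438). MALAT1, a nuclear speckle RNA, read 150.7, 108.6 and 115.3 in control, 96.6, 105.7 and 89.2 at 60, 123.3, 127.2 and 92.3 at 120 and 122.4, 160.4 and 107.8 at 240 ug/ml, with overlap at the upper doses and an adjusted p of 0.821 at the top dose. NORAD, which binds Pumilio proteins and guards chromosome stability, read 113.9, 113.2 and 112.8 in control against 109.9, 128.8 and 115.0 at 240 ug/ml (0.05, adjusted p = 0.558). NEAT1, the scaffold of paraspeckles and not among these 10, read 32.7, 38.9 and 30.9 in control, 20.1, 23.5 and 22.6 at 60, 33.5, 36.3 and 19.3 at 120 and 34.6, 63.3 and 38.3 at 240 ug/ml (0.36, adjusted p = 0.260). Its highest value was in the library with the lowest total. With equal totals AD000090.1 (0.56), NORAD (0.48) and NEAT1 (0.78) were called higher at 240 ug/ml, so whether they passed depended on the scaling. AC125611.3 (ENSG00000258232), with 666 of its 680 transcript bases in exons of the tubulin gene TUBA1C, was called higher at 120 ug/ml (0.52, adjusted p = 0.0432), a call lost when any of 7 libraries was left out. Its change at 240 ug/ml was 0.35 (adjusted p = 0.14), and with equal totals it was called higher at all 3 doses. Also abundant were 3 identical copies in the ribosomal RNA repeats of chromosome 21 (FP236383.2, FP236383.3 and FP671120.3), each at 98.8, 119.3 and 87.4 in control against 107.4, 108.0 and 100.5 at 240 ug/ml (adjusted p = 0.68), and called higher with equal totals (0.49, adjusted p = 0.00559). THAP9-AS1 rose at 240 ug/ml, from 69.6, 54.9 and 60.0 to 79.7, 86.2 and 75.4 (0.39, adjusted p = 0.00485), without overlap. LINC00973 fell as deposited, from 137.9, 122.1 and 107.4 to 88.0, 84.1 and 86.2 (-0.50, SE 0.09, adjusted p = 0.00146), and did not pass with equal totals (adjusted p = 0.577).

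Of 19 abundant nuclear and genome stability RNAs listed, 10 were measured here; DLEU2 and LINC-PINT rose and CRNDE fell at 120 and 240 ug/ml, and 7 did not pass. At 240 ug/ml 19.7% of all genes rose and 23.5% fell, so these counts lay near or under the shares of all genes. LINC-PINT here is the gene model ENSG00000226380, which read under 1 in every control library. Its call at 120 ug/ml was lost when any of 3 libraries was left out, and that at 240 ug/ml when any of 4 was. CRNDE, a growth-associated RNA, read 29.1, 34.1 and 31.6 in control against 22, 20.8 and 18.1 at 240 ug/ml (-0.62, limma adjusted p = 0.000249), and with equal totals its calls at 120 and 240 ug/ml were lost (adjusted p = 0.232 and 0.162). Of 12 listed RNAs induced by p53, 5 were measured: PVT1 and the same LINC-PINT model rose and TP53TG1 and MIR34AHG fell at 240 ug/ml. The TP53TG1 call (adjusted p = 0.0221) was lost with equal totals (adjusted p = 0.115) and without control replicate 2 (adjusted p = 0.0946). PVT1 lies beside MYC. It read 1.0, 1.4 and 1.0 in control, 2.9, 2.0 and 2.2 at 60, 2.0, 3.3 and 2.9 at 120 and 2.5, 3.8 and 3.8 at 240 ug/ml, all treated libraries above control, and rose by 0.65, 0.80 and 1.02 (SE 0.18; adjusted p = 0.0294, 0.00588 and 0.00106). The call at 60 ug/ml was lost when any of 4 libraries was left out, with an adjusted p of 0.112 without DHA60 replicate 1. MYC rose by 0.71 at 240 ug/ml.

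Of 25 listed growth and cancer-associated RNAs 11 were measured. At 240 ug/ml PVT1 and LUCAT1 rose and 6 fell, where 19.7% of all genes rose and 23.5% fell. The list median was -0.47 against -0.03 for all genes. The 6 include CYTOR and MIR4435-2HG, copies of one another, and LINC00973, whose call was lost with equal totals (limma adjusted p = 0.577). LUCAT1, a stress-induced RNA of epithelial cells, read 5.7, 3.4 and 4.1 in control, 7.7, 5.3 and 8.7 at 60, 15.2, 12.8 and 9.7 at 120 and 10.3, 10.9 and 8.2 at 240 ug/ml. It rose by 1.33 at 120 (SE 0.21, limma adjusted p = 0.000573) and by 1.01 at 240 ug/ml (adjusted p = 0.0023), both without overlap, and its change at 60 ug/ml was 0.61 (adjusted p = 0.0620). CYTOR (79.3, 76.0 and 68.2 in control; 57.6, 66.2 and 53.9 at 60; 42.2, 36.6 and 50.2 at 120; 51.2, 30.6 and 45.4 at 240 ug/ml) fell by 0.79 at 120 and 0.83 at 240 ug/ml (SE 0.17, adjusted p = 0.00407 and 0.00244). Its copy MIR4435-2HG read 43.7, 41.8 and 45.9 in control against 27.5, 18.1 and 23.2 at 240 ug/ml, a fall of 0.92 (SE 0.16, adjusted p = 0.00087). Reads of these copies can be split between them by the counting, so the value of each is uncertain. The LUCAT1 and CYTOR windows printed above both hold the AP-1 letters.

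Some microRNA hosts rose and others fell. Of the lncRNAs, 23 span 31 microRNA genes on the same strand; 1 rose and 1 fell at 60, 4 and 3 at 120, and 4 and 7 at 240 ug/ml. At 240 ug/ml 19.7% of all genes rose and 23.5% fell, so the hosts' shares lay near those of genes at large. A list of 27 host RNAs known by name, 9 of them measured, gave 3 and 5 at 240 ug/ml. MIR3142HG (chr5:160438594-160487426, plus strand), host of the NF-kB-induced miR-146a, read 1.4, 1.3 and 1.3 in control, 2.1, 2.8 and 2.8 at 60, 4.4, 4.2 and 3.8 at 120 and 4.1, 4.4 and 3.7 at 240 ug/ml. All treated libraries were above control, with changes of 0.61, 1.14 and 1.12 (SE 0.12; limma adjusted p = 0.00601, 6.63e-05 and 4.58e-05). DLEU2, host of the growth-restraining miR-15a and miR-16, read 2.1, 1.8 and 4.9 in control, 2.4, 2.6 and 6.9 at 60, 7.3, 5.0 and 9.4 at 120 and 6.5, 7.4 and 8.9 at 240 ug/ml. It rose by 1.11 and 1.2 at the upper doses (SE 0.35, adjusted p = 0.0272 and 0.0161), and both calls were lost without control replicate 2 (adjusted p = 0.104 and 0.0673). The miR-29 cluster is spanned by a LINC-PINT gene model (ENSG00000226380, chr7:130876809-130913310, minus strand), at 0.1, 0.3 and 0.5 in control against 0.6, 1.5 and 1.5 at 240 ug/ml (0.74, adjusted p = 0.0228; lost without DHA240 replicate 3, adjusted p = 0.0844), and by AC016831.6 (ENSG00000285106), at 0.7, 0.5 and 0.4 in control against 1.3, 1.4 and 1.2 at 240 ug/ml (0.59, adjusted p = 0.00924). The first model covers miR-29b and the second both miR-29a and miR-29b.

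Among the falling hosts, MIR181A2HG read 6.5, 5.0 and 4.6 in control, 2.8, 3.1 and 3.1 at 60, 2.5, 2.1 and 3.0 at 120 and 2.7, 3.1 and 2.5 at 240 ug/ml. It was lower in every treated library, by 0.66, 0.85 and 0.75 (SE 0.14; limma adjusted p = 0.00818, 0.000836 and 0.00134). MIR3677HG read 1.7, 1.7 and 1.6 in control, 2.5, 2.2 and 1.9 at 120 and 0.4, 0.5 and 0.4 at 240 ug/ml, and fell at the top dose (-0.90, adjusted p = 0.00138), with no call at 60 or 120 ug/ml. MIR34AHG, host of the p53 target miR-34a, read 2.8, 3.0 and 3.0 in control against 1.9, 1.8 and 1.5 at 240 ug/ml (-0.53, adjusted p = 0.0353). This call, MIR503HG (-0.43, adjusted p = 0.0439) and MIRLET7IHG (-0.40, adjusted p = 0.0313) were lost with equal totals (adjusted p = 0.353, 0.492 and 0.531).

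**Figure D5:**
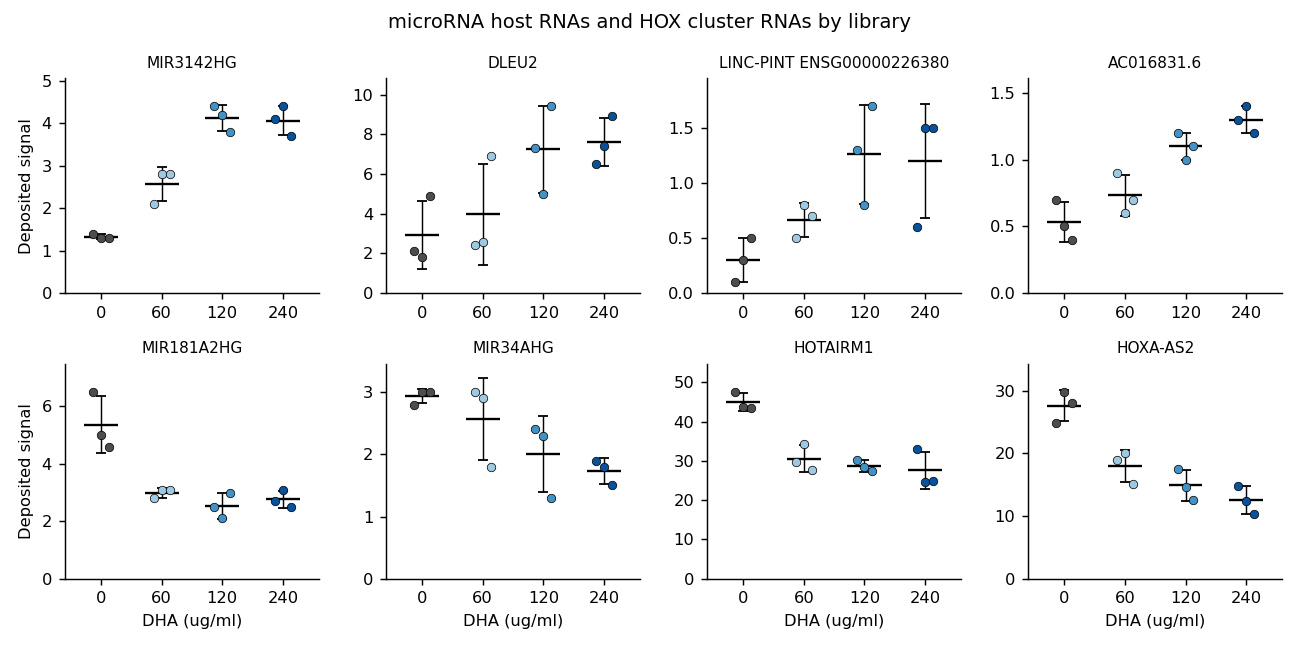
Deposited signal of 6 microRNA host lncRNAs and of the HOXA cluster RNAs HOTAIRM1 and HOXA-AS2 against the DHA dose in ug/ml; points are libraries, lines the means and bars the SD, n = 3. MIR3142HG was 1.3 to 1.4 in control and 3.7 to 4.4 at 240 ug/ml, and HOXA-AS2 24.9 to 29.8 and 10.4 to 14.8.

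RNAs of the HOX clusters, which run antisense among the genes of these body-axis transcription factors, included no riser. Of 19 listed 11 were measured; none rose at any dose, 2 fell at 60, 3 at 120 and 7 at 240 ug/ml, where 10.0, 20.8 and 23.5% of all genes fell, so the counts at the lower doses lay near the shares of all genes. The list median at the top dose was -0.57, against -0.03 for all genes. HOXA-AS2 (chr7:27107777-27134302, plus strand) read 24.9, 29.8 and 28.1 in control, 19, 20.0 and 15.1 at 60, 17.5, 14.7 and 12.6 at 120 and 14.8, 12.4 and 10.4 at 240 ug/ml. All treated libraries were under control, with changes of -0.59, -0.85 and -1.09 (SE 0.15; limma adjusted p = 0.0177, 0.00116 and 0.000186). Its call at 60 ug/ml was lost with equal totals (adjusted p = 0.0869) and without control replicate 2 (adjusted p = 0.0644). HOTAIRM1 (chr7:27095647-27100265, plus strand) read 47.5, 43.7 and 43.5 in control, 29.7, 34.4 and 27.6 at 60, 30.2, 28.4 and 27.3 at 120 and 33.0, 24.7 and 25 at 240 ug/ml, and had most of its fall at 60 ug/ml (-0.55, SE 0.11, adjusted p = 0.00771; 0.103 with GC content and length subtracted). HOXB-AS4 read 28.1, 26.4 and 26.6 in control against 10.5, 6.6 and 11.2 at 240 ug/ml (-1.46, adjusted p = 0.00649). The coding neighbours HOXA3 (-0.58), HOXA4 (-0.49) and HOXB7 (-0.38) also fell at 240 ug/ml. Other neighbours did not: HOXB2 rose (0.17, adjusted p = 0.0407), and HOXB3 (-0.53, adjusted p = 0.0668) and HOXB4 (0.04, adjusted p = 0.797) were not called. HOXB-AS1, which overlaps HOXB2, was not called either (-0.11, adjusted p = 0.655). With equal totals the calls of HOXA10-AS (adjusted p = 0.076) and HOXB-AS3 (adjusted p = 0.479) at 240 ug/ml were lost, and those of HOXA-AS2, HOTAIRM1 and HOXB-AS4 were kept.

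The remaining lists were small. Among all genes, 15.9% rose and 20.8% fell with 120 ug/ml, while the top dose gave 19.7 and 23.5%. The hypoxia counts below lay near these shares, and no list was tested against them. Of 14 hypoxia-associated RNAs 6 were measured; LUCAT1 rose and HIF1A-AS3 and ZNF337-AS1 fell at 120 and 240 ug/ml. HIF1A-AS3 (chr14:61715558-61751097, minus strand), antisense to the oxygen-sensing factor gene HIF1A without a shared exon, read 18.0, 12.1 and 14.5 in control, 7.5, 4.7 and 5.9 at 60, 9.8, 7.7 and 5.6 at 120 and 6.6, 3.1 and 4.2 at 240 ug/ml. It was under control in every treated library (-1.18, -0.88 and -1.52; SE 0.25; limma adjusted p = 0.00787, 0.0161 and 0.000543), whereas HIF1A went from 326.3, 279.7 and 309.5 in control to 467.4, 588.5 and 559.0 at 240 ug/ml (0.81, adjusted p = 0.00012). The HIF1A-AS3 call at 120 ug/ml was lost with equal totals (adjusted p = 0.0721) and without control replicate 1 (adjusted p = 0.0661). Both ZNF337-AS1 calls were lost with equal totals (adjusted p = 0.75 at 120 and 0.238 at 240 ug/ml), and the first also when any of 9 libraries was left out. Of 21 inflammation and interferon-associated RNAs 6 were measured; MIR3142HG rose and NKILA, an inhibitor of NF-kB, PSMB8-AS1 and MIR22HG fell at 240 ug/ml. NKILA read 5.0, 3.2 and 3.5 in control against 1.7, 2.3 and 2.4 at 240 ug/ml (-0.64, adjusted p = 0.0256). That call was lost with equal totals (adjusted p = 0.243) and without control replicate 1 (adjusted p = 0.108). Without control replicate 2 the calls of MIR22HG (adjusted p = 0.093) and PSMB8-AS1 (adjusted p = 0.116) were lost, the former with equal totals too (adjusted p = 0.0514). Of 19 TGF-beta and matrix-associated RNAs 3 were measured, of which MIR503HG and ZEB1-AS1 fell at 240 ug/ml. ZEB1-AS1 (-0.83, adjusted p = 0.017) fell beside a rise of ZEB1 (0.75), but not with equal totals (adjusted p = 0.0927). Of 16 neighbours of kidney lineage factors 2 were measured, and both LHX1-DT (-0.39, adjusted p = 0.0271) and TFAP2A-AS1 (-1.03, adjusted p = 0.00226) fell at 240 ug/ml. LHX1-DT was at 0.01 with equal totals, and its call was lost without DHA240 replicate 1 (adjusted p = 0.105).

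Promoter letters were compared for the 639 lncRNAs matched by symbol to RefSeq, which have 741 windows; 37 windows belonged to genes that rose at 240 ug/ml and 211 to genes that fell. The AP-1 letters TGANTCA, read on both strands, were in 7.71% of all 35116 windows of this length, in 7.15% of the lncRNA windows, in 10.8% of the windows of risers (4 of 37) and in 7.58% of those of fallers (16 of 211). The GC box GGGCGG, also read on both strands, was in 45% of all windows, 54.9% of lncRNA windows, 35.1% of risers' (13 of 37) and 55.9% of fallers' (118 of 211). The TATAAA letters stood in 11.5% of all windows and 8.23% of lncRNA windows, and CCAAT in 34.6 and 33.5%. The cAMP response element was in 1.85% of all windows, 3.1% of lncRNA windows and none of the 37 windows of risers.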

How the data were processed

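HK-2 RNA was sequenced as poly(A)-selected libraries, 3 in each of 4 groups, per the labels' protocols. The authors deposited a normalized signal per Ensembl transcript, to 1 decimal; the sources used here name no unit, aligner or counter. GRCh38.p14 is the build in the submitters' processing notes. Of 267165 transcripts, 202305 (75.7%) matched GENCODE release 29 and were summed per gene; the 64860 others, 5106 of them with a mean above 1, are missing from gene values. Genes with at least 1 in 3 libraries (16789) were tested with limma 3.58.1 (trend, R 4.3.3) on log2(signal + 1), in all 12 libraries, two-sided, with Benjamini-Hochberg adjustment; as the values are not counts, no count model was used. Single sums were compared by exact permutation (scipy 1.17.1). Near-identical copies were found with blastn 2.17.0 (97% identity over 50% of the main transcript). Named genes were the 8 highest and 8 lowest calls at each dose, the 10 most abundant, the 3 highest and 3 lowest per dose step, and listed genes. Not all of them are described above. Genes of X inactivation were left unnamed but were not taken out of any count. The lncRNAs and lists were chosen with earlier results of these data known. The fit was tested on simulated data. Alternatives were the pseudocount, filters, scaling, trend, samples fitted, a replicate block, a GC content and length correction, and leaving out each library. Depth is unknown, so no counting interval is given.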

Additional observations from a re-analysis of the deposited data

How the results depend on the processing

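Of 139 calls of named lncRNAs, 114 were kept with equal totals, 24 lost and 1 reversed: LHX1-DT at 240 ug/ml was 0.008. More were lost without control replicate 2 (28), without control replicate 1 (27) and with no filter (26), and 21 with GC content and length subtracted. NORAD at 120 ug/ml, not called as deposited, was 0.33 and called. Lowest and highest counts when 1 library was left out were, for rises and falls, 22 to 39 and 52 to 96 at 60, 75 to 119 and 183 to 270 at 120, 102 to 145 and 246 to 351 at 240 ug/ml, 0 to 32 and 0 to 52 from 60 to 120 ug/ml, 0 to 0 for both from 120 to 240 ug/ml, and 275 to 415 for any difference. Counts that moved by over 1.5 times were as follows, and the cause was not tested. With equal totals, rises and falls were 61 and 43 at 60, 252 and 113 at 120, 337 and 145 at 240 and 5 and 0 from 60 to 120 ug/ml. With a mean of at least 5, which leaves 272 lncRNAs, they were 20 and 29, 46 and 65, and 49 and 75 at the 3 doses, and 125 differed among groups. With GC content and length subtracted, rises were 60, 193 and 235, falls 53, 167 and 230 at the 3 doses and 4 from 60 to 120 ug/ml. From 60 to 120 ug/ml, no filter gave 0 and 0, only the 2 groups compared 0 and 0, and no trend 3 and 0. From 120 to 240 ug/ml, quantile normalization and no trend each gave 1 fall.

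Same-numbered libraries deviated together weakly, and the main fit had no replicate term. Their deviations correlated with r from -0.025 to 0.236 (median 0.057, 6 of 18 pairs over 0.1). Between other-numbered libraries r was -0.21 to 0.111 (median -0.035), and 8 of 12 libraries correlated best with their own number. With the replicate block, 20 rose and 38 fell from 60 to 120 ug/ml, against 6 and 8 without it, and at 240 ug/ml 148 rose and 369 fell. With the block and the GC content and length correction, 74, 213 and 240 rose at the 3 doses, and 21 rose and 16 fell from 60 to 120 ug/ml. DESeq2 and edgeR were not run, since the values are not counts. Depth is unknown, so calls among lncRNAs with values near 1 cannot be weighed by it.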
